A study of Mus musculus with 2 samples.

Results

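Genes of Hedgehog signalling and of the ciliary transition zone were followed in E14 mouse embryonic stem cells (mESCs) after knockdown of USP21, a deubiquitinase. The 9 members were found by gene symbol and comprised 6 Hedgehog genes (Ptch1, Smo, Sufu, Gli1, Gli2 and Gli3) and 3 transition zone genes (B9d1, B9d2 and Tctn1), out of 23889 symbols in the deposited tables. They were selected on what is known of USP21, which has been reported to act on Gli1, and with earlier results of these 2 libraries in view, in which B9d1 already stood out. Their values are therefore given as a description. There was 1 library per group. The control library came from cells of the genotype labelled Normal that received a control shRNA, and the other from cells labelled USP21 knockdown that received an USP21 shRNA. Both were E14 cells, labelled as derived from a 19/Ola mouse, grown without feeders on gelatin in medium with 15% serum and 1000 U ml−1 LIF, transfected and harvested after 3 days. The labels do not say which USP21 shRNA was used, and all cells belong to 1 line.

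In vertebrates Hedgehog signalling runs through the primary cilium, a single antenna-like projection built on a centriole. Without ligand, the receptor Ptch1 keeps the transducer Smo out of the cilium, and Sufu holds the Gli transcription factors so that Gli3, and in part Gli2, are processed into repressors. With ligand, Smo enters the cilium and Gli activators switch on targets that include Gli1 and Ptch1, so these transcripts are widely read as a gauge of pathway output. The transition zone is the gate at the base of the cilium. B9d1, B9d2 and Tctn1 belong to its MKS module, a protein complex that controls which membrane proteins, Smo among them, can enter.

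Promoter sequences were examined first, since genes of cilia are known to carry the X-box, the inverted repeat bound by RFX transcription factors. RefSeq promoter windows (GRCm38.p6, 250 bases before to 50 after each start site) matched 8 of the 9 members by symbol, in 9 windows, and there was none for Gli1. The X-box consensus, searched on both strands by its known pattern with up to 3 bases between the half-sites, occurred in the windows of B9d2 and Tctn1 and in 502 of all 32851 windows (1.53%). A looser form was written after the sequences had been seen. It reads GTTNCC, then 4 bases of any kind, then CAAC, overlaps the consensus in part, and occurred in windows of all 3 transition zone genes, in no window of the 5 Hedgehog members that have one, and in 235 windows overall (0.715%). Because the looser form followed sight of the sequences, its occurrence in all 3 transition zone genes is no test of a shared feature. Nothing is read from it, or from its contrast with the Hedgehog members and with all windows. The known consensus was not found for B9d1. The stretches that hold the looser matches are given as sequence alone. In the wider Hedgehog and ciliary lists, the looser form also occurred in windows of Ahi1, Mks1, Ift140, Ttc26, Bbs7, Prkacb and Prkar1a. Capitals mark the looser match, lower case the flanking bases, and each run is read on the gene's strand. The B9d1 stretch lies at chr11:61505130-61505159 (plus strand), the B9d2 stretch at chr7:25680788-25680817 (plus strand) and the Tctn1 stretch at chr5:122264411-122264432 (minus strand).
B9d1: taccgtctGTTTCCAAGACAACcgagagcc
B9d2: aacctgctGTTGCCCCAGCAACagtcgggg
Tctn1: ctgtgactGTTGCCCGGGCAAC
The Tctn1 run is shorter because its window ends there. In B9d2 and Tctn1 the capitals also match the full consensus, and in B9d1 they do not. The match covers the start site of B9d1 and lies just downstream of it in the other two. In the wider MKS module the consensus occurred in 6 of 20 windows, those of Ahi1, B9d2, Tctn1, Tctn2, Tctn3 and Tmem237. In the other Hedgehog and ciliary lists it occurred in windows of Prkacb, Prkar1a, Ift57, Kif17, Bbs1 and Lztfl1. The GLI site GACCACCCA and its shorter core CCACCCA, searched on both strands (the core lies within the site), matched no member's window, against 0.253% and 9.3% of all windows. A match is a run of letters and no evidence of binding, and the absence of one concerns this window alone.

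The deposited values are FPKM, fragments scaled for the length of the gene model and for the mapped fragments of the library. Levels of different genes within a library are set side by side on this scale per length. Such comparisons are rough for genes of unlike length, since the 2 libraries differed in how values moved with length. Between the libraries the values depend on scaling and on length, as given further on. FPKM summed to 613617 (control shRNA) and 543206 (USP21 shRNA). The files hold no counts. Relative depth, read from the steps between the smallest values, was 1.24 (control over USP21 shRNA), which gives no counting interval for a gene. This is a rough figure, since the bin of ratios it was read from held 32 of 1439 low genes. Usp21 itself was at FPKM 26.2 in control cells and 3.49 after knockdown, 7.51-fold lower, in the direction the labels give. All 10 stem cell markers examined, Pou5f1, Nanog and Sox2 among them, lay at an FPKM of 54.8 or more in both libraries, but 8 of the 10 were lower in the USP21 shRNA library. Their sum was 4618 and 3596 and their median log2 ratio -0.23, with Nanog at -0.86. Of all 11927 genes whose FPKM reached 1, 5912 were lower in that library. With both libraries scaled to the same sum, the markers' median was -0.057 and Nanog stood at -0.68. Sox2 (0.033) and Klf4 (0.024) then lay above 0, and the median of all genes was 0.18. The fibroblast markers summed to 22.4 and 11.4, mostly from Thy1 (17.3 and 5.29), with Col3a1, Dcn and Lum near or at 0. Summed neural progenitor markers were at 7.89 and 10.9 and mesoderm markers at 3.54 and 4.89, while endoderm markers were at 47.7 and 39.8. Their part in the values below was not tested, and in such bulk RNA fewer cells of a type and less RNA per cell cannot be told apart. Throughout, the log2 ratio is that of the USP21 shRNA library over the control library after 0.1 was added to each FPKM, so differences of low genes are understated. Paired values give the control library first. A gene is called when this ratio is at least 1 or at most -1 and its FPKM reaches 1 in either library. With 1 library per group a call is a size and no test, and the spread between cultures is unknown.

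B9d1 was 4.19-fold higher in the USP21 shRNA library, and the other 8 members were not called at 2-fold. Ptch1 and Gli3 were 1.86-fold and 2.02-fold higher, Gli1 and Gli2 1.32-fold and 1.20-fold higher, and Smo, Sufu and Tctn1 were nearly level. B9d2 was 1.17-fold higher. Thus 1 of 9 members was called higher and 0 lower, against 2.3% and 2.03% of the 11927 genes whose FPKM reached 1. Because the members were chosen with this contrast known, nothing is read from that count. The median log2 ratio was 0.33 for the 6 Hedgehog members, 0.22 for the 3 transition zone members and 0.0031 for all 11927 genes.

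**Figure D1:**
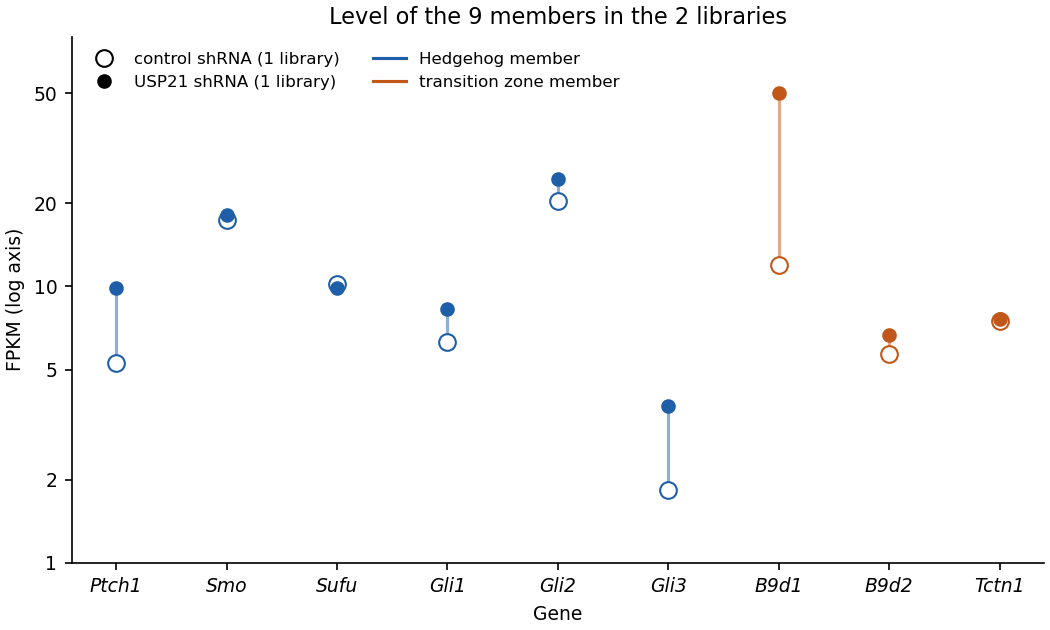
FPKM (log axis) of each member in the control shRNA library (open circles) and the USP21 shRNA library (filled circles), 1 library each, with no error bars since there are no replicates. B9d1 goes from 11.9 to 50.1, Ptch1 and Gli3 lie next in fold, and the circles of Smo, Sufu and Tctn1 nearly coincide.

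B9d1 encodes a B9-domain protein of the MKS module. Its FPKM was 11.9 in control cells and 50.1 after knockdown, a log2 ratio of 2.06. Only 17 of the 11927 genes had a higher ratio. In the band of mean FPKM from 20 to under 50, which holds B9d1, 0.764% of 2356 genes were called higher. B9d1 stood at place 5927 of all symbols by level in the control library and at place 1867 in the other. The genes beside it on the chromosome did not share the difference. Mapk7, the kinase ERK5, was at 28.0 and 30.0, and Epn2, an endocytic adaptor, at 22.1 and 25.8. No 31-base word of the B9d1 transcript used occurs, read in the same direction, in a transcript of another GENCODE M21 gene. The same holds for B9d2. The transcript is short, 890 bases, in a range where the general trend of these libraries runs the other way. With the length trend removed, as described below, its log2 ratio was 2.29.

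B9d2, a second B9-domain protein that binds B9d1 in the same complex, was at 5.71 and 6.68, a log2 ratio of 0.22. The level of B9d1 was thus 2.09 times that of B9d2 in control cells and 7.49 times that of B9d2 after it. Tctn1, a tectonic protein of the transition zone that is known to act on Hedgehog signalling, was at 7.48 and 7.60, a log2 ratio of 0.024. Its sign depends on the length trend, since it was -0.095 with that removed. Next to B9d2 lie Tgfb1 (6.29 and 5.39) and Tmem91 (0.76 and 1.11), and next to Tctn1 lies Pptc7 (8.42 and 6.86). Part of Tctn1 overlaps Hvcn1 (4.87 and 5.21), and whether the counting used strand is not given in the sources used here. Of the 3 transition zone members, B9d1 was the one past 2-fold.

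The genes most like B9d1 over the 2 libraries, by distance in log2(FPKM + 0.1), were Dynlt1c (13.4 and 57.7, distance 0.26), Smarcd1 (14.3 and 46.0, distance 0.28), Plk3 (13.96 and 41.6, distance 0.35), Mesdc2 (16.1 and 38.9, distance 0.56) and Snora81 (10.001 and 33.4, distance 0.64). With 2 points per gene this likeness says only that levels and ratios were close. Of the 31-base words of Dynlt1c 97% occur elsewhere in the annotation, and of those of Snora81 100%, whereas Smarcd1 and Plk3, like B9d1, have none that do.

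**Figure D2:**
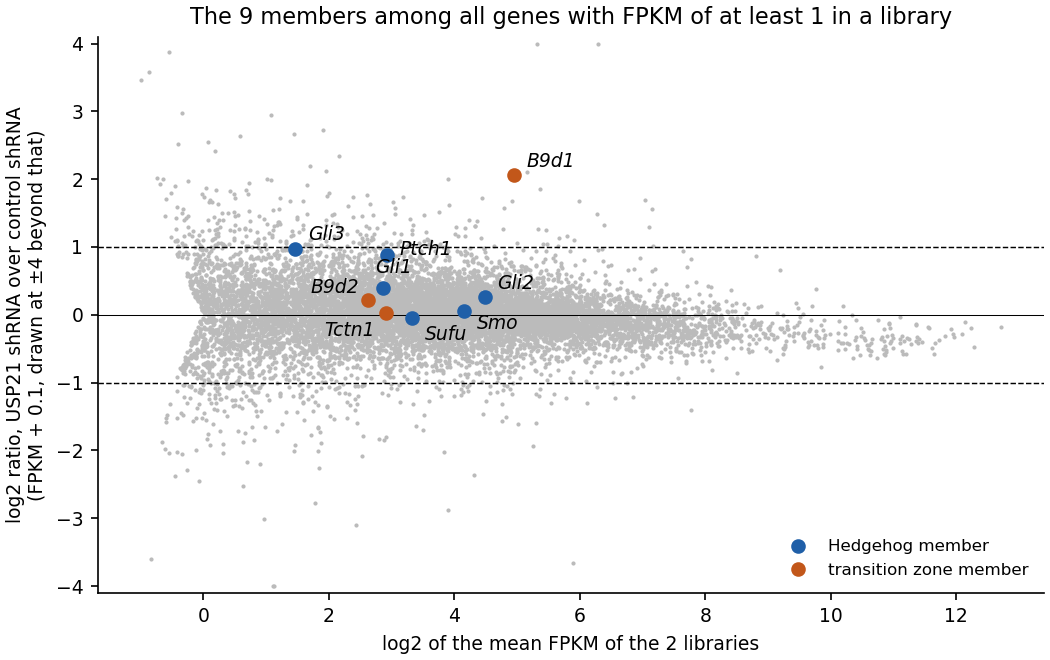
Log2 ratio (vertical) against the log2 of the mean FPKM (horizontal) for the 11927 genes whose FPKM reached 1 in either library (grey), with the 6 Hedgehog members in blue and the 3 transition zone members in orange. Dashed lines mark a log2 ratio of 1 and -1. B9d1 lies at 2.06, above most grey points at its level, Gli3 (0.98) and Ptch1 (0.89) lie just under the upper line, and the other members lie inside the cloud.

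Among the Hedgehog members, the receptor Ptch1 was at FPKM 5.29 and 9.86, a log2 ratio of 0.89. Among all genes whose FPKM reached 1, 377 had a higher ratio. Ptch1 was not called at 2-fold, and at 1.5-fold it was, together with Gli3 and B9d1. At that size 3 of 9 members were higher and 0 lower, against 7.77% and 6.46% of all genes and 6.82% higher in the band of mean FPKM from 5 to under 20 that holds Ptch1. The transducer Smo, a seven-pass membrane protein, was at 17.4 and 18.2, a log2 ratio of 0.062. Smo was 3.30 times as high as Ptch1, the receptor that holds it in check, in control cells and 1.85 times as high after knockdown. Their transcripts differ in length (3779 bases for Smo, 10383 for Ptch1). With the length trend removed, as described below, the log2 ratios were 0.043 for Smo and 0.60 for Ptch1. Sufu, the inhibitor that binds Gli proteins, was at 10.2 and 9.88, a log2 ratio of -0.040, which turned to 0.13 when both libraries were scaled to the same sum. Smo and Sufu thus had nearly the same level in both libraries.

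All 3 Gli transcription factors were higher in the USP21 shRNA library, by unequal amounts, and none of them was called. Gli1, the activator that is itself a target of the pathway and the protein on which USP21 is reported to act, was at 6.29 and 8.32, a log2 ratio of 0.40. A higher ratio was found for 1748 of the 11927 genes. Gli2, the main activator of the pathway in most tissues, was at 20.4 and 24.5, a log2 ratio of 0.26, exceeded by 2752 genes. Gli3, the main repressor, was at 1.83 and 3.70, a log2 ratio of 0.98, exceeded by 291 genes. It missed the 2-fold call through the constant of 0.1 that is added to both values, its plain ratio being 2.02. In the band of mean FPKM from 1 to under 5 that holds Gli3, 4.38% of genes were called higher. Gli2 remained the most abundant Gli transcript, at 11.2 times the FPKM of Gli3 in control cells and 6.63 times after knockdown. No 31-base word of the Gli transcripts used occurs in another gene's transcript read in the same direction. The opposite direction was not searched. Gli1 overlaps Arhgap9 (4.12 and 3.43) in the annotation.

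The order of the 9 levels changed mainly through B9d1 and Ptch1. In the control library it ran Gli2, Smo, B9d1, Sufu, Tctn1, Gli1, B9d2, Ptch1 and Gli3, from 20.4 to 1.83. In the USP21 shRNA library it ran B9d1, Gli2, Smo, Sufu, Ptch1, Gli1, Tctn1, B9d2 and Gli3, from 50.1 to 3.70. Without replicates the spread of a level is unknown, so close neighbours such as Sufu and Ptch1 in the second order (9.88 and 9.86) cannot be ranked. Gli3 was the lowest member in both libraries.

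The members differed in length, and length moved with the log2 ratio over the whole tables. Across 11378 genes with a transcript in GENCODE M21, which are not independent replicates, Spearman's rho of log2 ratio with transcript length was 0.32. With the genes cut into 10 equal groups by length, the median log2 ratio was -0.20 in the shortest group, which holds B9d1 and B9d2, and 0.25 in the longest, which holds Gli3 and Ptch1. In that longest group 16.3% of genes were higher by 1.5-fold, and 3.87% by 2-fold. Removing a lowess line of log2 ratio on length lowered Gli3 to 0.76, Ptch1 to 0.60 and Gli2 to 0.096, and raised B9d2 to 0.42. Gli1, at 0.36, Smo, at 0.043, and Sufu, at -0.097, moved little. The 2 Hedgehog members with the largest log2 ratios were thus also the 2 longest transcripts, and the part of length in their values was not tested beyond this correction.

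**Figure D3:**
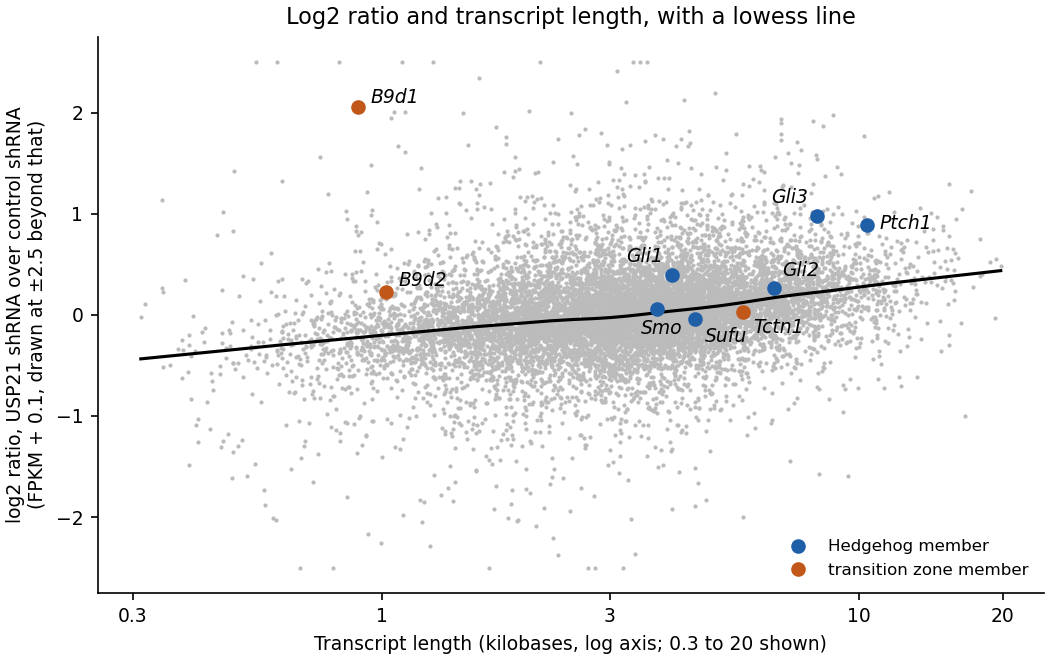
Log2 ratio (vertical) against transcript length in kilobases (log axis) for genes whose FPKM reached 1 (grey), with the lowess line in black and the members coloured. The line climbs with length, Gli3 (8170 bases) and Ptch1 (10383 bases) lie above its high end, and B9d1 (890 bases) lies far above its low end.

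Scaling also bears on the members near the 2-fold line. The summed FPKM was 1.13 times larger in the control library, and setting both libraries to the same sum moved the median log2 ratio of all genes to 0.18. With this scaling Ptch1 (1.07) and Gli3 (1.17) were called as well, and 73.6% of all calls were higher, against 53.1% with the values as deposited (274 higher and 242 lower). Relative to that median neither was past 2-fold. B9d1 was called under each setting tried.

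**Figure D4:**
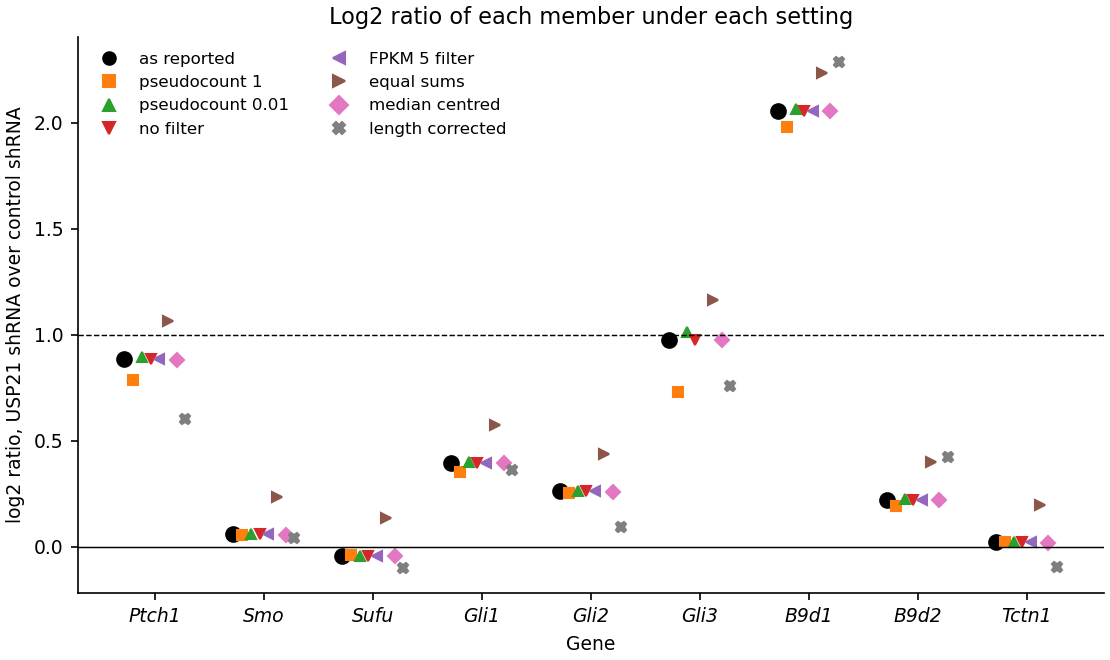
Log2 ratio of each member (vertical) as reported and under 7 other settings (symbols), with a solid line at 0 and a dashed line at 1, the 2-fold size. B9d1 stays between 1.98 and 2.29, Gli3 (0.73 to 1.17) and Ptch1 (0.60 to 1.07) fall on both sides of the dashed line, and Sufu and Tctn1 fall on both sides of 0. Gli3 has no symbol for the FPKM 5 filter, which it does not reach.

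The other genes of the pathway came from lists of ligands, receptors, transducers and targets, and of the 33 that are no members and whose FPKM reached 1, 4 were called higher and 0 lower, against 2.3% and 2.03% of all genes. Boc and Bcl2 among the 4 reached FPKM 1 in the USP21 shRNA library alone, and with a filter at FPKM 5 the count was 1. No more is read from it. Their median log2 ratio was 0.15. These lists, too, were drawn up with earlier results known. The ligands were low in both libraries. Shh, the ligand best known from the neural tube, was at 0.011 and 0.025, Dhh at 0.42 and 0.095, and Ihh at 1.33 and 0.69, so the ligand with the highest level was lower in the USP21 shRNA library (log2 ratio -0.86). Hhat, which attaches palmitate to the ligands, was at 1.46 and 1.11. Scube3, a secreted protein of a family that aids ligand release, was called higher, at 1.03 and 3.65 (log2 ratio 1.73), and was the highest of its list.

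Receptors and co-receptors were the list with the highest median, 0.88 over 6 genes whose FPKM reached 1, Ptch1 included, of which 5 were higher by 1.5-fold, against 7.77% of all genes and 16.3% of the longest group by transcript length, where Ptch1, Cdon and Lrp2 lie. Boc, a co-receptor of the immunoglobulin superfamily, was called at 0.71 and 2.12 (log2 ratio 1.46), passing the level filter through the USP21 shRNA library alone. Its relative Cdon was at 2.17 and 4.06 (0.87). Lrp2, a large endocytic receptor known as megalin, was called at 9.39 and 23.1 (1.29), but its transcript of 15460 bases is the longest named here and its ratio was 0.91 with the length trend removed. Gas1, a membrane-anchored co-receptor, went the other way at 1.66 and 1.15 (-0.49). With the length trend removed the list's median was 0.67.

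The transduction list, Smo and Sufu included, was close to level. All its 22 genes reached FPKM 1, none was called in either direction, and the median log2 ratio was 0.081, or -0.021 with the length trend removed. Its extremes were the kinase Dyrk2 (5.02 and 7.26, 0.52) and Efcab7 (3.00 and 1.81, -0.70), which anchors a Smo-binding complex in the cilium. Protein kinase A, whose phosphorylation starts Gli processing, was represented by Prkaca (42.1 and 39.7), Prkacb (14.7 and 14.2) and the regulatory subunit Prkar1a (77.7 and 73.0), each slightly lower after knockdown, and slightly higher under equal sums.

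Target genes were mixed. Beside Gli1 and Ptch1, the cyclin Ccnd2 was at 3.85 and 6.65 (log2 ratio 0.77) and the survival factor Bcl2 was called at 0.39 and 1.09 (1.26), again through the USP21 shRNA library alone. Mycn, a proliferation factor, was at 23.8 and 26.8 (0.17), and the cyclin Ccnd1 was the lowest of those that reached FPKM 1, at 59.3 and 48.3 (-0.30). Foxf2, a forkhead factor, was at 0.50 and 0.14, under the level filter. Hhip, a decoy receptor that is a sensitive target in many tissues, was at 0.35 and 0.47, under the level filter. The neural tube targets Nkx2-2, Nkx6-1 and Olig2 were all under 0.1 in both libraries. Of the 14 targets, Gli1 and Ptch1 included, 8 reached FPKM 1, with 6 above and 2 below a log2 ratio of 0. Among all 11927 genes whose FPKM reached 1, 6015 lay above 0 and 5912 below. Nothing is read from so small a count.

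**Figure D5:**
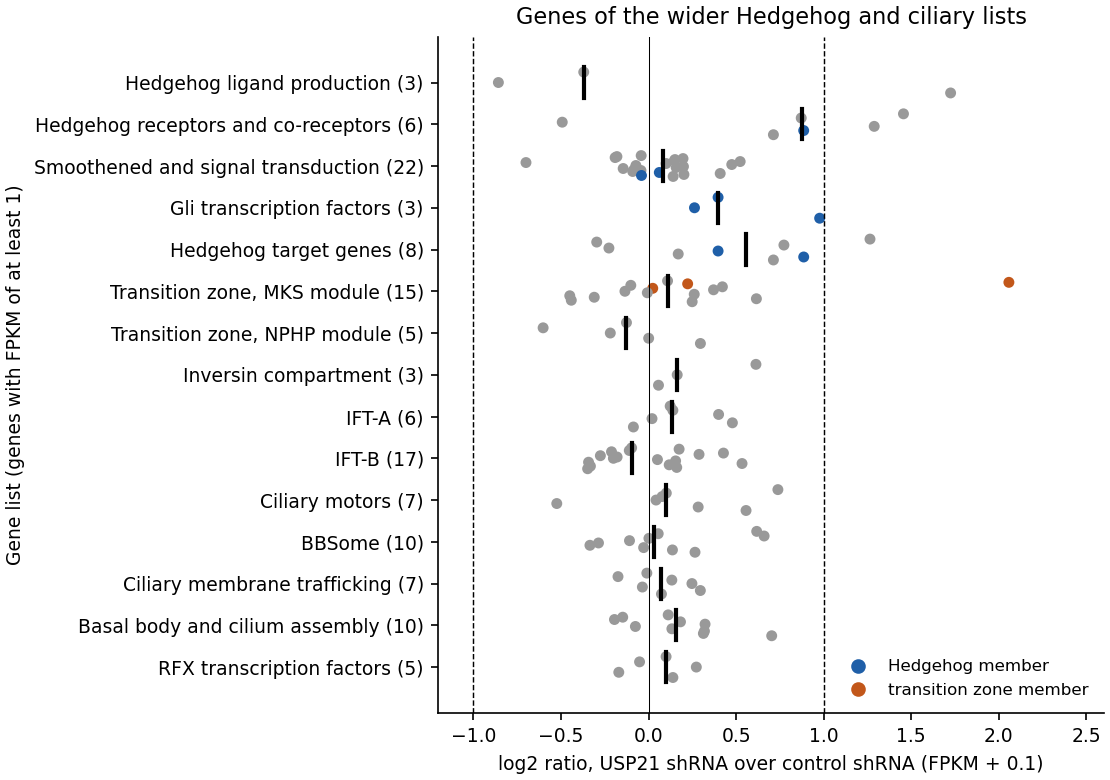
Log2 ratios of the genes whose FPKM reached 1 in each wider list (points), with the list's median (black bar), the number of genes in parentheses, and dashed lines at -1 and 1. The receptor list has the highest median (0.88), B9d1 is the rightmost point of all lists (2.06), and the intraflagellar transport, BBSome and basal body lists lie around 0.

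B9d1 was the one member of its own complex past 2-fold. Of 15 MKS module genes, all of which reached FPKM 1, it alone was called, against 2.3% of all genes called higher and 2.03% lower. Because B9d1 was chosen with its value known, nothing is read from that count. The median log2 ratio of the 15 was 0.11. After B9d1 came Tmem231 (10.5 and 16.2, 0.62), a transmembrane protein that joins it in the complex, then Mks1 (10.2 and 13.7, 0.42), the founding B9-domain protein of the module. Tectonics Tctn2 (6.44 and 8.36, 0.37) and Tctn3 (4.06 and 3.69, -0.13) lay on either side of Tctn1. At the low end were Tmem216 (22.7 and 16.6, -0.45) and Tmem237 (30.6 and 22.5, -0.44).

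The second transition zone module, built around nephrocystins, had 5 genes, none called. Its extremes were Rpgrip1l (1.24 and 1.55, log2 ratio 0.30), a scaffold of the transition zone, and Iqcb1 (10.2 and 6.65, -0.60), and the median of -0.13 turned to 0.043 under equal sums. The rest of the cilium was represented by genes of intraflagellar transport, which carries cargo along the cilium, of its motors, the BBSome, membrane trafficking and the basal body, and by RFX factors. Of 85 ciliary genes whose FPKM reached 1, transition zone included, 1 was called higher, which was B9d1, and 0 lower, a share no larger than the 2.3% and 2.03% of all genes. Without the members the median log2 ratio of the remaining 82 was 0.089, and 50 of them lay above 0, as did 6015 of all 11927 genes, whose median was 0.0031. Among the largest ratios outside the transition zone were those of Dync2h1 (0.99 and 1.73, 0.74), the heavy chain of the retrograde motor, Ttbk2 (2.03 and 3.37, 0.70), a kinase that starts cilium assembly, and Bbs1 (1.64 and 2.64, 0.66), a BBSome subunit. Dync2h1 reached FPKM 1 in the USP21 shRNA library alone. The transcripts of Dync2h1 and Ttbk2 are long, and with the length trend removed their log2 ratios were 0.38 and 0.40. Kifap3, a subunit of the anterograde motor, was the lowest of the motors at 17.4 and 12.1 (-0.52). RFX factors, which bind the X-box, ranged from -0.17 for Rfx5 to 0.27 for Rfx3 among the 5 of 6 that reached FPKM 1. Genes of motile cilia, a different kind from the primary cilium, were low, with Foxj1, their master regulator, at 2.25 and 2.01. Of the 6 that reached FPKM 1, Ccdc39 (0.57 and 1.33, 1.09) was the one called, against 2.3% of all genes called higher. Ccdc39 reached FPKM 1 in the USP21 shRNA library alone.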

How the data were processed

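RNA of E14 mESCs was analysed in 2 libraries, those of the control and the USP21 shRNA. The deposited tables give FPKM by gene symbol, with 1 value for each library. The submitters' processing notes name CASAVA 1.8.2, TopHat2 2.0.14, Cufflinks 2.2.1 and the build mm9. Annotation, settings and the division of shared fragments are not given in the sources used here. FPKM keeps no counts, so no count model, interval or detection limit was computed, and with 1 library per group no test was made.

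Log2 ratios, calls and medians were computed as defined in the report (pseudocount 0.1, level filter FPKM 1). Transcript lengths (the transcript with the longest coding sequence) and 31-base words came from GENCODE M21 (GRCm38). Words of that 1 transcript were searched in the transcript direction only. Among the members, words shared with other genes were found for Smo (4.16%), Tctn1 (3.02%) and Ptch1 (0.947%). Neighbouring genes and promoters came from RefSeq (GRCm38.p6). Since the files' build differs, coordinates are given only for printed sequences. Length correction was a lowess fit with span 0.3. Of 51 Hedgehog list genes, 50 were found (Disp1 was not), and all 88 ciliary ones.

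The members and lists were chosen with earlier results of these data known. Genes named are the members, called genes and extremes of the lists, neighbours, and the 5 genes nearest to B9d1. Others (among them Shh, Dhh, Hhip, Foxf2, Nanog, protein kinase A genes, Tmem231, Mks1, Tmem237, Cdon and Foxj1) were added for their roles or values after the values were seen. Some list genes are not reported here by name. Alternatives were pseudocounts of 1 and 0.01, no filter, a filter at FPKM 5, equal sums (TPM), median centring, length correction and a 1.5-fold size. Scripts were tested on simulated libraries. Computation used pandas 2.3.3 with numpy 2.4.6 in Python 3.11.15, lowess from statsmodels 0.14.6, rank correlation from scipy 1.17.1, and plotting with matplotlib 3.10.9.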

Additional observations from a re-analysis of the deposited data

How the results depend on the processing

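No paired analysis was possible because each group has 1 library, and for the same reason no library could be left out. B9d1 was called higher under each of the 8 alternatives. The number of members called, 1 as reported, was 2 with a pseudocount of 0.01 (Gli3 added) and 3 under equal sums or at 1.5-fold (Gli3 and Ptch1 added). A median was taken to have moved at a difference of 0.1 or more. The median log2 ratio of the Hedgehog members, 0.33, became 0.51 under equal sums and 0.23 with the length trend removed, and that of the transition zone members, 0.22, became 0.40 and 0.42. In the Hedgehog lists 4 genes were called higher as reported, 2 with a pseudocount of 1, 1 with a filter at FPKM 5, 7 under equal sums and 9 at 1.5-fold. The lower calls there went from 0 to 2 without a filter and to 2 at 1.5-fold. In the ciliary lists 1.5-fold gave 7 higher and 1 lower, against 1 and 0. Among those 7, Dync2h1 reached FPKM 1 in the USP21 shRNA library alone. Over all genes, 274 higher and 242 lower calls became 108 and 100 with a pseudocount of 1, 521 and 459 without a filter, 119 and 97 at FPKM 5, 555 and 199 under equal sums, and 927 and 771 at 1.5-fold. No member past 2-fold changed sign. The depth of the libraries and the spread between cultures, which would set the error of each value, are unknown here.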

Other observations

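Some markers of other lineages differed between the libraries. Hand1, a transcription factor of mesoderm and trophoblast, was at FPKM 0.40 in control cells and 1.25 after knockdown, a log2 ratio of 1.42. It reached FPKM 1 in the USP21 shRNA library alone. Of the 3 mesoderm markers that reached FPKM 1 it was the 1 past 2-fold, against 2.3% of all genes called higher. Mixl1 went the other way (1.06 and 0.61, -0.70), reaching FPKM 1 in the control library alone, and Eomes was nearer to level (1.20 and 1.40, 0.20). Under the level filter, T (0.093 and 0.21), Tbx6 (0.28 and 0.61) and Kdr (0.24 and 0.56) were higher, and Mesp1 (0.26 and 0.24) was slightly lower. Sox7, a transcription factor of primitive endoderm, was lower, at 4.68 and 1.97, a log2 ratio of -1.204. It was the 1 called of the 6 endoderm markers, against 2.03% of all genes called lower. Of these 6, 4 were lower and 2 higher, with a median log2 ratio of -0.20. Gata6, another endoderm factor, was the highest of them, at 8.60 and 10.8 (0.32). Thy1, a surface glycoprotein listed as a fibroblast marker, was at 17.3 and 5.29, a log2 ratio of -1.69. It was the 1 called of the 3 fibroblast markers that reached FPKM 1, against 2.03% of all genes called lower. The others of the 3 were Pdgfra (2.48 and 4.22) and Pdgfrb (1.65 and 1.14). Each of these differences rests on 1 library per group and was not tested.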
